A study of Mus musculus with 2 samples.

Results

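The genes described here are 10 genes of the glucocorticoid and stress hormone response, chosen by name from the 32531 gene symbols in the count tables, and each had a line in both. They are the corticosteroid receptor genes Nr3c1 and Nr3c2, the receptor co-chaperone genes Fkbp4 and Fkbp5, the hormone-induced genes Sgk1 and Tsc22d3, the enzyme genes Hsd11b1 and Hsd11b2, and the receptor genes Crhr1 and Crhr2 for corticotropin-releasing hormone. They were counted in RNA bound to tagged ribosomes taken from adult Lypd1-EGFP/Rpl10a (OI82) mice by dissection of the dentate gyrus, with no treatment, in 2 libraries of 1 group. In such a line the ribosomal protein Rpl10a is fused to EGFP and the line is named for the gene Lypd1, so the RNA comes from the cells in which that tag is made. Both libraries carry the tag and both are immunopurified. An input library, an untagged animal, a stressed animal or a hormone-treated animal was not analysed here, so every value is a level in purified RNA and none is an enrichment or a response. Nothing in the labels ties a replicate to an animal of its own, and the replicate spread may be technical.

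Corticosterone, the main glucocorticoid of the mouse, enters cells and binds both the glucocorticoid receptor, encoded by Nr3c1, and the mineralocorticoid receptor, encoded by Nr3c2. The mineralocorticoid receptor binds corticosterone with the higher affinity, and the hippocampus is known for holding both. The unbound receptors sit in a complex with Hsp90 and immunophilins, and after binding hormone they enter the nucleus and act on target genes through a palindromic DNA element.

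Replicate 1 held 31309643 counts on gene lines and replicate 2 held 32711412. Each level is a count divided by that total and multiplied by 1000000 (CPM). Granule cell markers stood high in both libraries, with all 10 detected and a median of 309 CPM in replicate 1 and 305 CPM in replicate 2. Prox1, the transcription factor of granule cell identity, was at 1100.0 and 1193 CPM. Lypd1 was at 265 and 194 CPM and Rpl10a at 259 and 199 CPM, where tagged and endogenous Rpl10a cannot be told apart. Microglial markers summed to 2.24 and 2.14 CPM over 6 genes, with C1qa and C1qb at 0 counts. Astrocyte markers summed to 444 and 474 CPM over 7 genes, 6 detected, most of it Slc1a2 at 389 and 413 CPM. Markers of GABAergic interneurons summed to 76.6 and 125 CPM over 8 genes, 3 detected. Most of it was Gad1 at 50.0 and 75.6 CPM and Gad2 at 19.7 and 42.8 CPM. Sst, at 3.16 and 2.17 CPM, and Lhx6, at 2.14 and 0.734 CPM, were lower in replicate 2. Dlx1 was higher there, at 0.607 and 3.24 CPM. Activity-regulated genes differed between the libraries, with 8 of 12 at least 2-fold higher in replicate 2. Among all genes with a mean of at least 1 CPM, 4.51% were. The median log2 ratio of the 12 was 1.84, with 10 above 0 and 2 below.

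The palindromic element, in which the arms AGAACA and TGTTCT stand 3 free bases apart, is shown first because it is the sequence through which the receptors reach genes such as Sgk1. Promoter windows of 300 bases, 250 before and 50 after each RefSeq start on GRCm38.p6, were searched for it. The element reads the same on both strands, so a match counts for both. Windows of 8 of the 10 genes were searched, 15 windows in all. Of these, 6 belonged to starts of Sgk1 and 3 to starts of Tsc22d3. Nr3c1 and Hsd11b2 were not part of the search, so nothing is said of their promoters. An exact match was present in 1 Sgk1 window, and in 3 of all 32851 windows, or 0.00913% of them. It lies at chr10:21993701-21993715 on the plus strand, 189 bases before its start site. A stretch of the window around it follows, 5′ to 3′, with the matching letters in capitals.
Sgk1, chr10:21993671-21993745, plus strand: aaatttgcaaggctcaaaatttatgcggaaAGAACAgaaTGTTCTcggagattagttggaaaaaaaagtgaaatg

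Closest matches in other windows are set out for comparison, each with the letters that match the element in capitals and the lower-case letters either at the 3 free positions or mismatched. They include 1 window each of 4 other hormone genes. The closest matches of Crhr1, Crhr2 and Fkbp4 had 5 mismatches each.
Sgk1, chr10:21985921-21985935, plus strand, 2 mismatches: AGAAgAttcTGaTCT
Hsd11b1, chr1:193242485-193242499, minus strand, 4 mismatches: AGtAaAcatTGTcCa
Tsc22d3, chrX:140548778-140548792, minus strand, 4 mismatches: cGAgCAgttTtTaCT
Nr3c2, chr8:76902169-76902183, plus strand, 5 mismatches: AcAgCgaccTGaaCT
Fkbp5, chr17:28486290-28486304, minus strand, 6 mismatches: tGAAgAggcgGagaT

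A match with at most 2 mismatches was present in 1.84% of all windows and one with at most 4 in 57.0%, so the matches of Hsd11b1 and Tsc22d3 are at the level of most promoters. The single arm AGAACA or TGTTCT, which is contained in the full element, was present in 4 of the 15 windows, 3 of Sgk1 and 1 of Tsc22d3, and in 19.0% of all windows. A match is a description of letters. The counts are per gene and do not show which start of Sgk1 or Tsc22d3 was used.

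Of the 10 genes, 7 reached 1 CPM in each library, called detected here, against 38.1% of all gene lines. The mineralocorticoid receptor gene, the glucocorticoid receptor gene, both co-chaperone genes and both hormone-induced genes were above 8 CPM in each library. The CRH receptor gene Crhr1 was detected near 3 CPM. The enzyme gene Hsd11b1 and the receptor gene Crhr2 passed 1 CPM in replicate 1 alone, and Hsd11b2 had no counts.

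**Figure D1:**
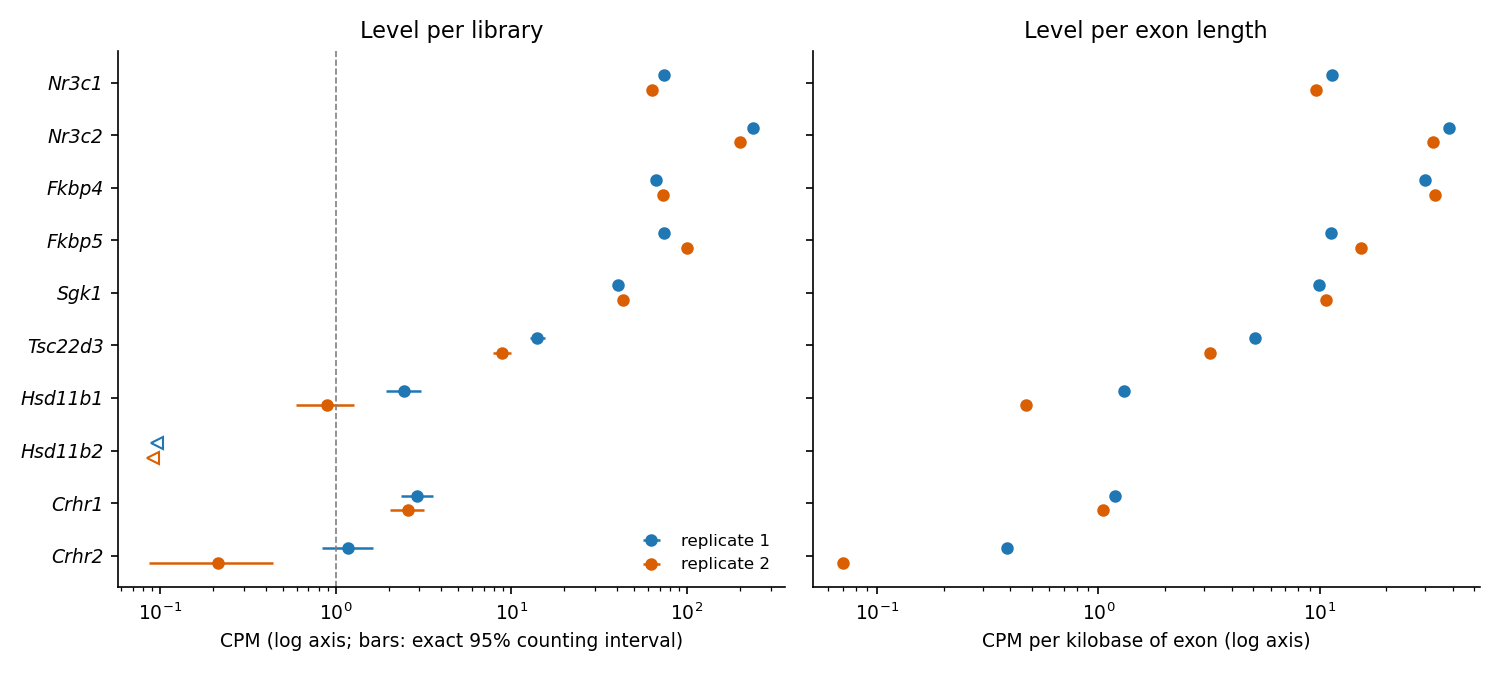
Levels of the 10 genes in replicate 1 (blue) and replicate 2 (orange), as CPM with exact 95% counting intervals on the left and as CPM per kilobase of annotated exon on the right, both on log axes. The dashed line marks 1 CPM, and open triangles mark the limit of 3 counts set for the 0 counts of Hsd11b2. On the left Nr3c2 stands highest, at 238 and 200.3 CPM, and on the right Fkbp4 stands beside it.

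Nr3c2, the mineralocorticoid receptor gene, was the most abundant of the 10 by counts. It lies on chromosome 8 (76899442 to 77245012, plus strand, GRCm38). It had 7459 and 6551 counts, or 238 CPM in replicate 1 and 200.3 CPM in replicate 2, with a mean of 219 ± 26.8 CPM (SD, n = 2). This placed Nr3c2 at percentile 93.8 of the detected genes in replicate 1 and 91.9 in replicate 2. Its rank among all gene lines was 773 and 1004. On the opposite strand the lncRNA gene Gm10649 shares 247 exon bases with Nr3c2, or 3.82% of its exon length. Gm10649 had 70 and 18 counts, few beside those of Nr3c2, and the strand setting of the counting is not given in the sources used here.

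Nr3c1, the glucocorticoid receptor gene on chromosome 18, was lower than Nr3c2 in both libraries. It had 2315 and 2058 counts, which is 73.9 and 62.9 CPM and a mean of 68.4 ± 7.80 CPM (SD, n = 2). Its percentile among detected genes was 76.7 and 73.7. Per kilobase of annotated exon, Nr3c1 was at 11.3 and 9.62 CPM and Nr3c2 at 38.5 and 32.4 CPM. The level of Nr3c2 per kilobase was 3.41 times that of Nr3c1 in replicate 1 (95% counting interval 3.25 to 3.57) and 3.37 times in replicate 2 (3.21 to 3.54). The ratio of their counts, which needs no scaling, was 3.22 and 3.18. It differed 1.01-fold between the libraries, the smallest difference among the 4 pairs that had counts for both genes, and the intervals overlapped.

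Markers of CA2 pyramidal cells, which are known for strong Nr3c2 expression, were low beside it. They summed to 72.9 CPM in replicate 1 and 50.8 CPM in replicate 2 over 7 genes, of which 4 were detected. Rgs14 was the highest, at 27.4 and 16.6 CPM, and Pcp4 was at 0.256 and 0.397 CPM. The part of other cells in the Nr3c2 level was not tested. In such bulk RNA, fewer cells of a type and less RNA per cell cannot be told apart.

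Fkbp4 and Fkbp5 encode FKBP52 and FKBP51, immunophilins that bind Hsp90 in the receptor complex. FKBP51 lowers the hormone affinity of the glucocorticoid receptor and its gene is itself induced by the hormone, while FKBP52 favours transport to the nucleus. Fkbp4 lies on chromosome 6 (128429735 to 128438677, minus strand) and had 2076 and 2401 counts, which is 66.3 and 73.4 CPM and a mean of 69.9 ± 5.02 CPM (SD, n = 2). Fkbp5 lies on chromosome 17 (28399094 to 28517527, minus strand) and had 2304 and 3284 counts, which is 73.6 and 100.4 CPM and a mean of 87.0 ± 19.0 CPM. The Fkbp5 value of replicate 2 was the higher by more than the counting error.

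The order of the co-chaperone genes turned with the scale. By counts, Fkbp5 was 1.11 times Fkbp4 in replicate 1 and 1.37 times in replicate 2. The annotated exons of Fkbp5 span 6539 bases and those of Fkbp4 span 2217 bases. Per kilobase, Fkbp4 was at 29.9 and 33.1 CPM and Fkbp5 at 11.3 and 15.4 CPM. Fkbp4 was then 2.66 times Fkbp5 in replicate 1 (95% counting interval 2.50 to 2.82) and 2.16 times in replicate 2 (2.05 to 2.27). Those intervals do not overlap, so the relation of the pair differed between the libraries beyond counting error.

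Sgk1 encodes a kinase that acts on ion channel turnover and cell survival and is a classical target of both receptors. It lies on chromosome 10 (21882184 to 21999903, plus strand) and had 1260 and 1420 counts. Its level was 40.2 and 43.4 CPM, with a mean of 41.8 ± 2.24 CPM (SD, n = 2). Among detected genes Sgk1 stood at percentile 63.6 and 65.9. Sgk1 is also expressed by oligodendrocytes, whose markers summed to 190 and 144 CPM over 7 genes, with Mbp at 126 and 99.3 CPM. Their part in the Sgk1 level was not tested.

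Tsc22d3 encodes GILZ, a leucine zipper protein that carries part of the anti-inflammatory action of glucocorticoids. It lies on chromosome X (140539528 to 140600659, minus strand) and had 441 and 289 counts, which is 14.1 and 8.83 CPM and a mean of 11.5 ± 3.71 CPM (SD, n = 2). It was the lowest of the 6 genes above 8 CPM, at percentile 38.5 and 30.8 of detected genes. Per kilobase, Sgk1 was 1.95 times Tsc22d3 in replicate 1 (95% counting interval 1.75 to 2.18) and 3.36 times in replicate 2 (2.96 to 3.82). The counting intervals of that ratio do not overlap.

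**Figure D2:**
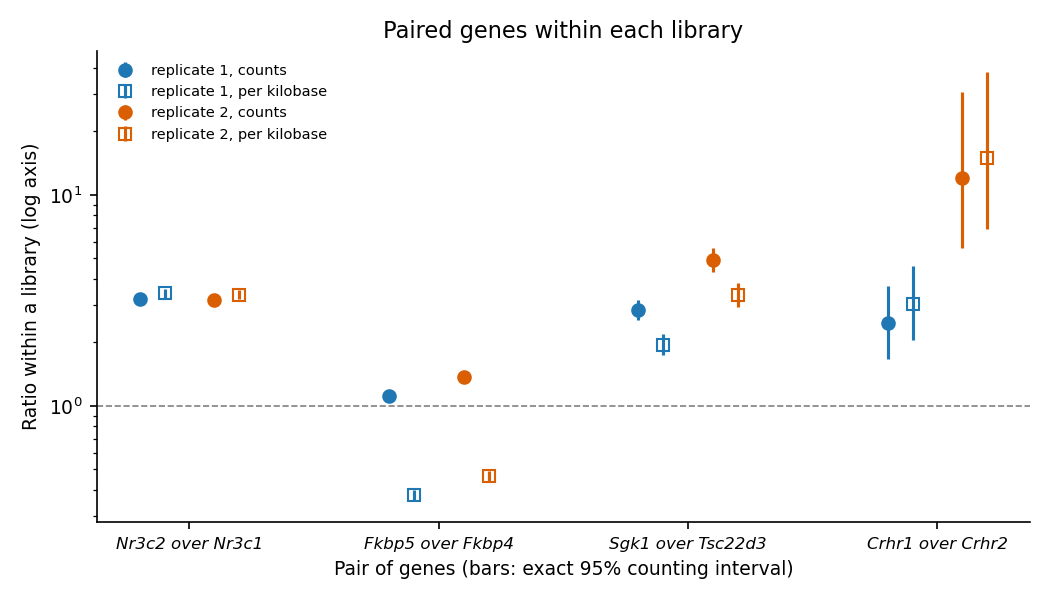
Ratio of paired genes within replicate 1 (blue) and replicate 2 (orange), from counts (filled circles) and per kilobase of exon (open squares), on a log axis with exact 95% counting intervals. Nr3c2 over Nr3c1 is nearly the same in both libraries, at 3.22 and 3.18 by counts. Fkbp5 over Fkbp4 is above 1 by counts and below 1 per kilobase.

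Counts were low for the genes of the enzymes that set the local level of active hormone. Hsd11b1 encodes the enzyme that regenerates corticosterone from its inactive form, and it lies on chromosome 1 (193221634 to 193264075, minus strand). Hsd11b1 had 77 and 29 counts. That is 2.46 CPM (exact 95% interval 1.94 to 3.07) and 0.887 CPM (0.594 to 1.27). H6pd, the enzyme that supplies its cofactor, was at 6.61 and 3.39 CPM and was also lower in replicate 2.

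Hsd11b2 encodes the enzyme that inactivates corticosterone and so shields the mineralocorticoid receptor from it in the kidney. It lies on chromosome 8 (105518755 to 105523988, plus strand) and had 0 counts in replicate 1 and replicate 2 alike. A limit of 3 counts per library was set for a 0, which is 0.0958 CPM in replicate 1 and 0.0917 CPM in replicate 2. Against that limit the observed count of Hsd11b1 per kilobase was at least 25.0-fold higher in replicate 1. In replicate 2 it was at least 9.43-fold higher. These folds leave out the counting error of Hsd11b1 itself. They use exon lengths of the basic annotation, 1887 bases for Hsd11b1 and 1840 bases for Hsd11b2. In the comprehensive annotation Hsd11b1 has 4251 bases and Hsd11b2 again 1840, which would lower both folds. Reads were not marked by molecule, so these limits and all intervals given here describe counting error alone.

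Crhr1 encodes the main receptor for corticotropin-releasing hormone, the peptide that starts the hormonal stress response, and lies on chromosome 11 (104132855 to 104175523, plus strand). It had 91 and 84 counts, which is 2.91 CPM (exact 95% interval 2.34 to 3.57) and 2.57 CPM (2.05 to 3.18). These intervals overlap. Crhr2, the receptor gene for the urocortins, lies on chromosome 6 (55090049 to 55133016, minus strand). It had 37 and 7 counts, which is 1.18 CPM (0.832 to 1.63) and 0.214 CPM (0.0860 to 0.441), and those intervals do not overlap. Per kilobase, Crhr1 was 3.05 times Crhr2 in replicate 1 (95% counting interval 2.06 to 4.60) and 14.9 times in replicate 2 (6.91 to 38.1).

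Crhr2 is also known from the choroid plexus. Of 5 marker genes of that tissue, 2 had a mean of at least 1 CPM, and both were lower in replicate 2. The sum over the 5 genes was 55.9 CPM in replicate 1 and 26.0 CPM in replicate 2, most of it Kl at 50.0 and 25.9 CPM. Ttr, the defining transcript, had 182 counts in replicate 1 and 4 in replicate 2. Folr1 and Clic6 were at 0 counts in both, and Aqp1 had 3 and 0 counts. Median log2 ratios were also below 0 for markers of mossy cells (-0.81), CA1 cells (-0.72), CA2 cells (-0.54) and oligodendrocytes (-0.38). The same held for endothelial cells (-0.23) and CA3 cells (-0.19). Medians were above 0 for markers of granule cells (0.15), astrocytes (0.06) and GABAergic interneurons (0.69). With library totals alone the astrocyte median was -0.03. The part of choroid plexus RNA in the Crhr2 counts was not tested.

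Per kilobase of exon the same genes stood high and low in both libraries, apart from neighbours in the order. Nr3c2 and Fkbp4 led and exchanged places between the libraries, with means of 35.5 ± 4.34 and 31.5 ± 2.26 CPM per kilobase (SD, n = 2). With these exon lengths, of the basic annotation, the replicate spread does not separate them. With the comprehensive annotation, a setting chosen after seeing the data, Nr3c2 was the higher in both libraries. It was at 36.8 and 30.9 CPM per kilobase, and Fkbp4 at 23.7 and 26.3. Fkbp5 (13.3 ± 2.90), Nr3c1 (10.5 ± 1.19) and Sgk1 (10.3 ± 0.552) came next, and their order also differed between the libraries. Tsc22d3 followed at 4.14 ± 1.34 CPM per kilobase. Crhr1 (1.11 ± 0.0973) and Hsd11b1 (0.887 ± 0.589) could not be ordered by their spread, and Crhr2 (0.229 ± 0.224) and Hsd11b2 came last. With the comprehensive annotation Crhr1, at 1.18 and 1.04, was above Hsd11b1, at 0.579 and 0.209, in both libraries.

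The 2 libraries were then compared gene by gene as a measure of how well each level is fixed. This compares libraries of the same group, has no replicate check and gives no p-value. The log2 ratio of replicate 2 to replicate 1 was scaled by the TMM method of edgeR with a prior count of 2. Of the 10 genes, 8 had a mean of at least 1 CPM, and 1 of these, Hsd11b1, differed by at least 2-fold. Among all 13089 genes with that mean, 10.3% differed by at least 2-fold in either direction and 5.75% were that far lower in replicate 2. At a lower bar of 1.5-fold Hsd11b1 was still the only 1 of the 8, against 26.9% of all genes in either direction, 14.3% lower and 12.6% higher in replicate 2. Tsc22d3 and Fkbp5 lay just inside that bar. With library totals alone Tsc22d3 passed it, at a log2 ratio of -0.67, so that 2 of the 8 did. That scaling moves the median log2 ratio of all genes to -0.10. The median log2 ratio was -0.11 for the 8 genes and -0.01 for all genes.

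Both receptor genes were slightly lower in replicate 2 by nearly the same amount. The log2 ratio was -0.16 for Nr3c2 (95% counting interval -0.21 to -0.11) and -0.14 for Nr3c1 (-0.23 to -0.05). A ratio at least as far from 0 was found in 66.7% of the 1680 genes within 2-fold of the Nr3c2 level and in 70.3% of the 3392 genes near Nr3c1. Such differences were therefore common among genes of like abundance.

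Fkbp5 had the largest ratio towards replicate 2, at 0.54 (95% counting interval 0.46 to 0.62), which is 1.45-fold. Of the 3082 genes within 2-fold of its level, 15.8% had a ratio at least as far from 0. Fkbp4 had a log2 ratio of 0.24 and Sgk1 of 0.20, both towards replicate 2. Tsc22d3 had a ratio of -0.58 (-0.80 to -0.36), or 1.49-fold higher in replicate 1, and 27.7% of genes near its level were at least as far from 0. The hormone-induced genes Fkbp5 and Tsc22d3 thus lay on opposite sides, with Sgk1 between them.

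Among the low genes, Crhr1 had a log2 ratio of -0.08 (95% counting interval -0.53 to 0.36), which includes 0. Hsd11b1 had a ratio of -1.32 (-2.05 to -0.75), and 22.2% of the 2542 genes within 2-fold of its level were at least as far from 0. Crhr2, below the mean of 1 CPM, had a ratio of -2.09 (-3.78 to -1.19), and 20.6% of the 2374 genes within 2-fold of its level were at least as far from 0.

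**Figure D3:**
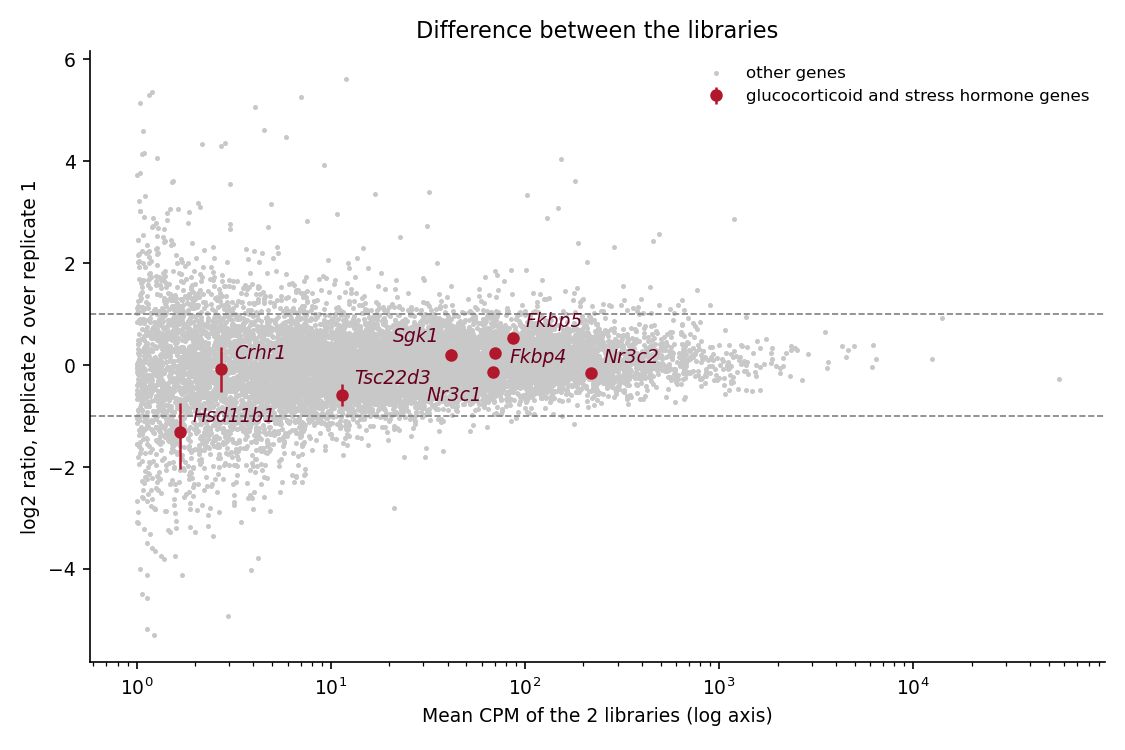
Log2 ratio of replicate 2 to replicate 1 against mean CPM (log axis) for genes with a mean of at least 1 CPM (grey), with 8 of the 10 hormone genes in red and their 95% counting intervals as bars. Dashed lines mark a 2-fold difference. Hsd11b1 lies below the lower line at -1.32, and the other 7 lie between the lines.

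Other genes of the pathway were read from fixed lists. RNA of the chaperones that hold the receptors ready for hormone was abundant, with 15 of 16 genes detected and medians of 108 and 119 CPM. Hsp90ab1 was at 1260.1 and 1513 CPM, Hspa8 at 552 and 765 CPM and Hsp90aa1 at 486 and 802 CPM, all of which have near-identical copies in the genome that can take reads. Of the 15 with a mean of at least 1 CPM, 11 lay above 0, with a median log2 ratio of 0.23, while -0.01 was the median of all genes. With TMM scaling Dnaja1 (247 and 514 CPM, log2 ratio 1.15) and Hspa4 (225 and 449 CPM, 1.09) were past 2-fold towards replicate 2, against a background of 4.51% in that direction. With library totals alone, 1 of the 15, Dnaja1, was past 2-fold. Fkbp4 and Fkbp5, which bind the same complex, also lay on that side.

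Genes of coregulators that nuclear receptors recruit were all detected, 15 of 15, with medians of 177 and 195 CPM. The corepressor gene Ncor1 was at 671 and 541 CPM and the coactivator gene Ncoa1 at 514 and 456 CPM. The mediator subunit Med14 was at 440 and 553 CPM and the acetyltransferase gene Crebbp at 428 and 375 CPM. None of the 15 differed by 2-fold between the libraries, 7 lay above 0 and 8 below, and the median log2 ratio was -0.03.

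Of 24 further genes known to be induced by glucocorticoids in some tissue, 18 were detected. The transcription factor gene Klf9 was at 431 and 446 CPM, the GTPase gene Rhob at 353 and 572 CPM, the repressor gene Bcl6 at 314 and 291 CPM and the feedback inhibitor gene Errfi1 at 139 and 150 CPM. The liver enzyme genes Tat and Pck1 had 5 and 11 counts in replicate 1 and 0 and 3 in replicate 2, and Lcn2 had none. Of the 19 with a mean of at least 1 CPM, 11 lay above 0 and 8 below, with a median log2 ratio of 0.03. With library totals alone 7 lay above 0 and 12 below, with a median of -0.06. Gjb6 was past 2-fold towards replicate 2 (47 and 109 counts) and Pdk4 towards replicate 1 (100 and 23 counts). The list centred near 0, while Fkbp5 and Tsc22d3 lay at 0.54 and -0.58.

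**Figure D4:**
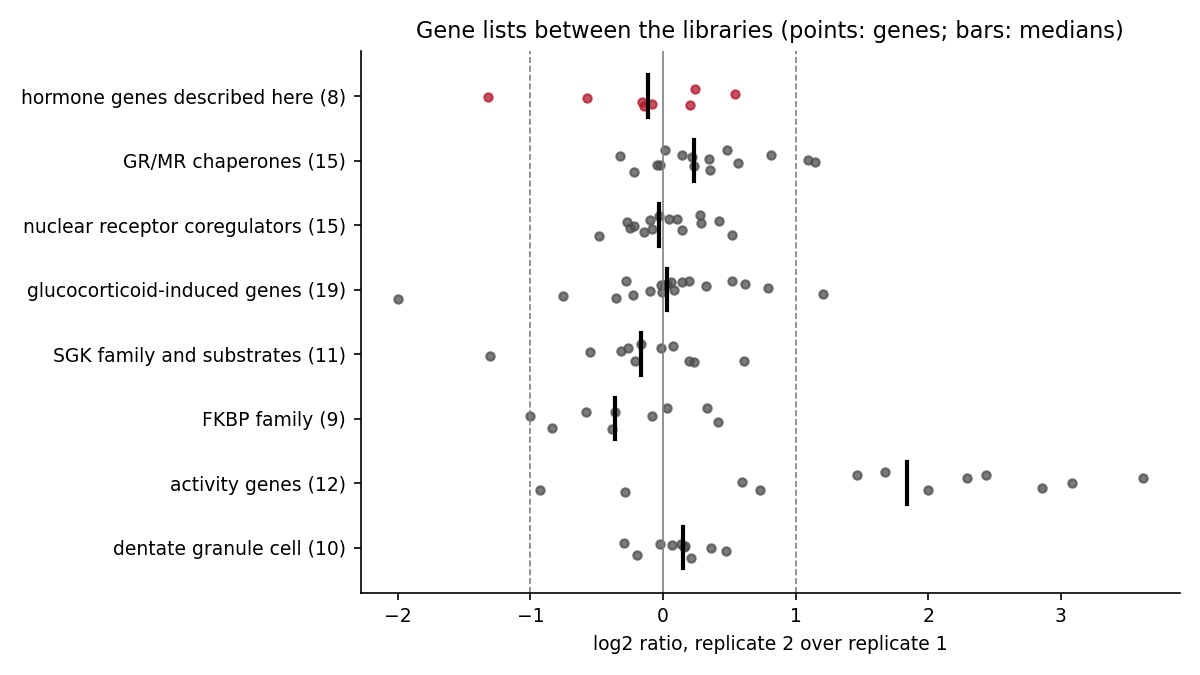
Log2 ratio of replicate 2 to replicate 1 for each gene with a mean of at least 1 CPM in 8 gene lists, with the number of genes in brackets, points for genes and black bars for medians. Dashed lines mark a 2-fold difference. The hormone genes and the glucocorticoid-induced genes centre near 0, at -0.11 and 0.03, and the activity genes at 1.84.

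The peptides of the stress axis were at or near 0 in this RNA. Of 15 ligand and receptor genes, 3 were detected, against 38.1% of all gene lines, and Ucn, Ucn2, Ucn3, Oxt and Mc2r had 0 counts. Crh had 0 and 1 counts, Crhbp, which encodes its binding protein, 0 and 11, and Avp 3 and 6. Pomc had 19 and 20 counts, Avpr1a 7 and 5, and Avpr1b 7 and 1. Adcyap1r1, the receptor gene for the peptide PACAP, was the highest at 143 and 115 CPM, while the peptide gene Adcyap1 had 38 and 0 counts. The melanocortin receptor gene Mc4r was at 8.82 and 6.45 CPM and the oxytocin receptor gene Oxtr at 2.11 and 1.31 CPM. Crhr1, at 91 and 84 counts, thus stood beside 0 and 1 counts of the gene for its ligand.

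Genes for steroid synthesis were mostly at or near 0 counts as well. Of 16 genes for making, changing and carrying steroids, 5 were detected, against 38.1% of all gene lines. In both libraries 6 had 0 counts, among them Cyp11b1 and Cyp11b2, which complete corticosterone and aldosterone synthesis. Of all 32531 gene lines, 17844 had a count in replicate 1 and 18082 in replicate 2, so 0 counts were common among all genes. Cyp7b1, which hydroxylates neurosteroids, was the highest, at 38.6 and 28.0 CPM, followed by the cholesterol carrier gene Star at 9.71 and 13.7 CPM. Cyp11a1 was past 2-fold towards replicate 2, with 13 and 70 counts. Abcb1a, which encodes an exporter of steroids at the blood-brain barrier, was at 2.68 and 2.81 CPM. Endothelial markers, whose cells carry that exporter, summed to 23.5 and 20.1 CPM over 6 genes, and their part in it was not tested.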

How the data were processed

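Ribosome-bound RNA was counted in 2 immunopurified libraries of 1 group. The authors deposited raw counts for each gene symbol, made with STAR 2.0.0e, HTSeq and genome build mm10, per the submitters' processing notes. For the annotation and strand setting: not given in the sources used here. HTSeq's summary lines, 35.0% of all counts in replicate 1 and 35.1% in replicate 2, and the line unknown, with 0 counts, were left out of totals.

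CPM, mean ± SD and exact Clopper-Pearson intervals at 95% were computed with scipy 1.17.1. Exon lengths are merged exons of GENCODE M21 basic (GRCm38), available for all 10 genes. They assume that all annotated exons are used. Log2 ratios between libraries used edgeR 4.0.16 TMM scaling and a prior count of 2, and DESeq2 1.42.0 size factors served as an alternative. With 1 group no test between conditions was possible. Promoters are from RefSeq.

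The 10 genes and the lists were chosen with earlier results of these data known. Named are the 10 genes, Lypd1 and Rpl10a, up to 4 most abundant genes of a list, its genes past 2-fold, and any gene of the peptide, steroid receptor and steroid synthesis lists, except 1 that is not reported here. Scnn1a, Scnn1b, Scnn1g, Sgk2, Gm10649, Pcp4, Ttr, Kl, Folr1, Clic6, Aqp1, C1qa, C1qb, Tat, Pck1 and Lcn2 were named after their values were seen or for being at or near 0.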

Additional observations from a re-analysis of the deposited data

How the results depend on the processing

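Replicate 1 and replicate 2 are the only libraries, so leaving out either leaves a single value. The number of genes detected was 7 in both libraries, and 7 to 9 without either replicate. Without a filter on the mean, 2 genes instead of 1 were at least 2-fold lower in replicate 2, the added gene being Crhr2, since fewer genes are then left out. The ratio of Nr3c2 to Nr3c1 counts averaged 3.20. It was 3.39 per kilobase of exon and 3.80 with the comprehensive annotation, an alternative chosen after seeing the data. The ratio of Fkbp5 to Fkbp4 averaged 1.24 by counts and turned to 0.420 per kilobase and 0.366 with the comprehensive annotation, because the exons of Fkbp5 are the longer. The ratio of Crhr1 to Crhr2 averaged 7.23 by counts, 15.0 with the comprehensive annotation, and ranged from 2.46 to 12 without either replicate. Over all values, 251 settings stayed within the allowed spread, 50 moved beyond it and 2 reversed, both of them the Fkbp5 ratio. For each level and each ratio of paired genes, leaving out a library was bound to count as staying. With 2 libraries, a single value always lies within the SD around the mean. Those settings are therefore no check. No paired analysis was possible because there is 1 group. Crhr1, Crhr2 and Hsd11b1 rest on 7 to 91 counts a library, and Hsd11b2 on none, so depth limits what can be said of these 4.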

Other observations

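Relatives of the hormone genes were read in the same way. Of 13 other FKBP genes 9 were detected, led by Fkbp1a, the target of the drug FK506, at 1714 and 2026 CPM, and Fkbp3 at 77.9 and 74.6 CPM. Fkbp1b was past 2-fold towards replicate 1, at 19.8 and 9.23 CPM. The median log2 ratio of the 9 was -0.36, with 6 below 0, while Fkbp4 and Fkbp5 lay at 0.24 and 0.54. Tsc22d1 was at 520 and 482 CPM and Tsc22d2 at 91.6 and 102 CPM, and Tsc22d4 at 1.15 and 1.68 CPM. Among kinases related to Sgk1, Sgk3 was at 6.61 and 2.48 CPM and Sgk2 at 0.128 and 0.642 CPM. Nedd4l, a ubiquitin ligase that SGK1 phosphorylates, was at 1314 and 991 CPM, and Scnn1a, which encodes a subunit of the epithelial sodium channel that Nedd4l removes from the membrane, at 41.0 and 26.2 CPM. Scnn1g was at 1.18 and 0.978 CPM, and Scnn1b had 0 counts.

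Other steroid or steroid-like receptor genes were low or moderate. The orphan receptor gene Esrrg was at 29.5 and 32.3 CPM, the progesterone receptor gene Pgr at 31.9 and 21.1 CPM and Esrra at 5.30 and 6.85 CPM. The oestrogen receptor gene Esr1 had 31 and 3 counts, Gper1 24 and 0, Esrrb 23 and 37, and Esr2 none. Activity genes with the largest ratio towards replicate 2 were Inhba (28.8 and 332 CPM) and Arc (33.2 and 265 CPM), and in the heat shock list Bag3 (3.13 and 30.6 CPM) and Hsph1 (443 and 876 CPM) were past 2-fold on the same side with TMM scaling. With library totals alone, 1 of them, Bag3, was. Hspa1a, which has a near-identical copy in Hspa1b, was at 5.62 and 2.42 CPM. The part of these differences in the ratios of Fkbp5 and the chaperone genes was not tested.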
